A study of Rattus norvegicus with 24 samples.

Results

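The 37 genes described here build the contacts of epithelial cells with each other and with the basement membrane. They comprise 10 tight junction genes, 5 adherens junction genes, 5 desmosome genes, 3 gap junction genes, 6 genes of basement membrane contact, and 8 genes for surface proteins, membrane proteases with their inhibitors, and vesicle trafficking. Every probe set annotated to 1 of these genes was taken, which gave 47 of the 31042 probe sets tested, with at least 1 for each gene. Over the whole array, 14217 genes had a probe set of their own. Itga6 had 4 probe sets, Cldn1 and Gja1 had 3 each, Tjp1, Ocln and Cdh1 had 2 each, and the other genes had 1.

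The samples were abdominal mammary glands of Sprague-Dawley rats aged 33 days. From weaning at 21 days, males and females had received 17β-estradiol from subcutaneous osmotic pumps at 0, 0.1, 1 or 10 µg/kg/day, so every animal carried a pump. Sex and dose made 8 groups with 3 arrays each, and the comparisons asked how the prepubertal gland of each sex responded to the hormone. The labels do not state that each array was a separate animal, so the p-values measure the spread between arrays, part of which may be technical.

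Expression values in the table are signed logs, read here as log2, and appear to be centred for each probe set within each sex. They were therefore used for differences between doses within a sex, not as levels of a gene, and no female value was set against a male value. Values in individual arrays are given in the order of the replicate numbers. Differences are log2 differences with their standard error (SE) from limma, 3 arrays a group. A probe set was called when its Benjamini-Hochberg adjusted p, over all probe sets tested, was under 0.05.

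Epithelial cells are held together by several kinds of contact. Tight junctions, built from claudins and occludin and anchored by ZO proteins and cingulin, seal the space between cells. Adherens junctions join actin filaments through cadherins and catenins, while desmosomes join keratin filaments through desmogleins, desmocollins and plakophilins. Gap junctions are channels of connexins that pass small molecules between cells. Integrins, laminin-332 and collagen XVII attach the basal face to the basement membrane, which in the mammary gland lies under the outer, myoepithelial layer. The prepubertal gland is mostly fat with a small branching epithelial tree, and estrogen is known to drive the growth of its ducts.

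RefSeq windows before the start of the gene, on build GRCr8, were found for 28 of the 37 genes. The 9 without a window were Cdh1, which encodes E-cadherin, and Cdh3, Cldn4, Ctnna1, Pkp2, Pkp3, Itgb4, Itga6 and St14. Snail and Zeb factors, which repress E-cadherin and other epithelial genes, bind the letters CACCTG. These letters, read on both strands in the 250 bases before the start, stood in 17 of the 28 genes (60.7%). Over 27457 genes with windows of that length, 17% held them. A gene with several windows counts once, if any of them holds the letters. The median GC content was 62.4% in the 29 windows of these genes and 51.2% over all windows, and its part in the difference was not tested. Among the 14 genes with a window that were called in males at 1 or 10, 9 held the letters. The palindromic estrogen response element GGTCANNNTGACC was in 0 of the 28 genes and in 0.0219% of all genes with a window. Its single arm AGGTCA, which overlaps it, stood in 2 of the 28 (7.14%) and in 14.8% of all genes with a window. AACCNGTT, the motif of grainyhead factors of epithelia, stood in 3 (10.7%) and in 1.84%. A match is a description of the letters only. The windows below belong to 5 of the genes described in detail, shown because they range from 4 copies of CACCTG to none. Each is written 5′ to 3′ on the strand of the gene, with CACCTG or its reverse complement in capitals.
Cldn7 (chr10:55188420-55188669, + strand): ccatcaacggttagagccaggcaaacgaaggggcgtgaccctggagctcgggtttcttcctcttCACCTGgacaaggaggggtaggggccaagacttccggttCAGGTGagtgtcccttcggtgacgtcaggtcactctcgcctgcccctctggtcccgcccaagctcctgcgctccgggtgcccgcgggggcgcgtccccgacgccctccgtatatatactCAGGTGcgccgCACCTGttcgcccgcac
Ocln (chr2:33441199-33441448, - strand): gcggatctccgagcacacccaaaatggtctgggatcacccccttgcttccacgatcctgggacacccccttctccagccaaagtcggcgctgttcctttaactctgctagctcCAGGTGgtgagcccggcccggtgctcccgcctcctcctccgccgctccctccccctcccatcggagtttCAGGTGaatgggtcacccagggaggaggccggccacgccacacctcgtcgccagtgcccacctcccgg
Epcam (chr6:12649679-12649928, - strand): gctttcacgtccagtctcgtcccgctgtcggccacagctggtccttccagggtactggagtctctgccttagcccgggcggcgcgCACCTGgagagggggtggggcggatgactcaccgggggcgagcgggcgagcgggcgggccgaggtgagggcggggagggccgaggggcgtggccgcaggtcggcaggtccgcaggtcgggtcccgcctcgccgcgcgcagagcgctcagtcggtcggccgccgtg
Gjb2 (chr15:35381954-35382203, - strand): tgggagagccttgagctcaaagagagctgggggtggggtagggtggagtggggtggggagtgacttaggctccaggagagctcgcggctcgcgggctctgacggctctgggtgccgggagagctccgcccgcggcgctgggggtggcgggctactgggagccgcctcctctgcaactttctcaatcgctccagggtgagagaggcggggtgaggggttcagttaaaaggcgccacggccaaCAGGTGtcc
Gja1 (chr20:36302314-36302563, + strand): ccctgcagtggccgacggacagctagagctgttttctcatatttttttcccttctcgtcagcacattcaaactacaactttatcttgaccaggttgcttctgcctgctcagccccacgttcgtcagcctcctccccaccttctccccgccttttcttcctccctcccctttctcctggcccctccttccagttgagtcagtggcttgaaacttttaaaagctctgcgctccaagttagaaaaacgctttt
Cldn7 held 4 copies, Ocln 2, Epcam and Gjb2 1 each, and Gja1 none. The copy of Gjb2 began 9 bases before the start.

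Some arrays stood apart, and these values bear on the results below. Male replicate 1 at 0 was the lowest male array in 28 of the 47 probe sets, and male replicate 3 at 0 was the highest of its group in 37. Female replicate 4 at 0.1 was the lowest female array in 26. The mean of 4 luminal keratins, which mark the inner epithelial layer, was -1.14, -0.90 and -0.01 in males at 0, 0.45, 0.58 and 0.83 at 1, and -0.13, 0.31 and 0.06 at 10. The mean of 17 measured keratinocyte and hair follicle genes, of 23 listed, ranged from -0.47 to -0.27 in males at 0 and from 0.78 to 1.75 in males at 10. Hepatocyte markers, of which 15 of 16 were measured, ranged from -0.04 to 2.51 in males at 0 and from -0.29 to -0.21 at 10. The B cell mean was -1.93, 0.08 and -1.57 in males at 0 and -0.07, 0.94 and 0.77 at 10. The T cell mean was -1.94, 0.36 and -1.29 at 0 and -0.22, 0.89 and 0.89 at 10. Skeletal muscle markers ranged from -0.51 to 1.10 at 0 and from -1.74 to 0.92 at 10. The hepatocyte, muscle, B cell and T cell means are the tissue marker covariates of a later fit. Beta-actin 3′ minus 5′, which is higher where RNA is less intact, gave -0.56, -0.06 and -0.28 in males at 0 and -0.02, 0.16 and 0.05 at 10. Being differences of centred values, these rank arrays within a sex and are not true 3′ to 5′ ratios. Of the white adipocyte markers, 10 of 10 fell in males at 10 and 8 of 10 in females at 10. They had 13 and 11 of 14 probe sets called lower, where 9.64% and 1.05% of all were.

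**Figure D1:**
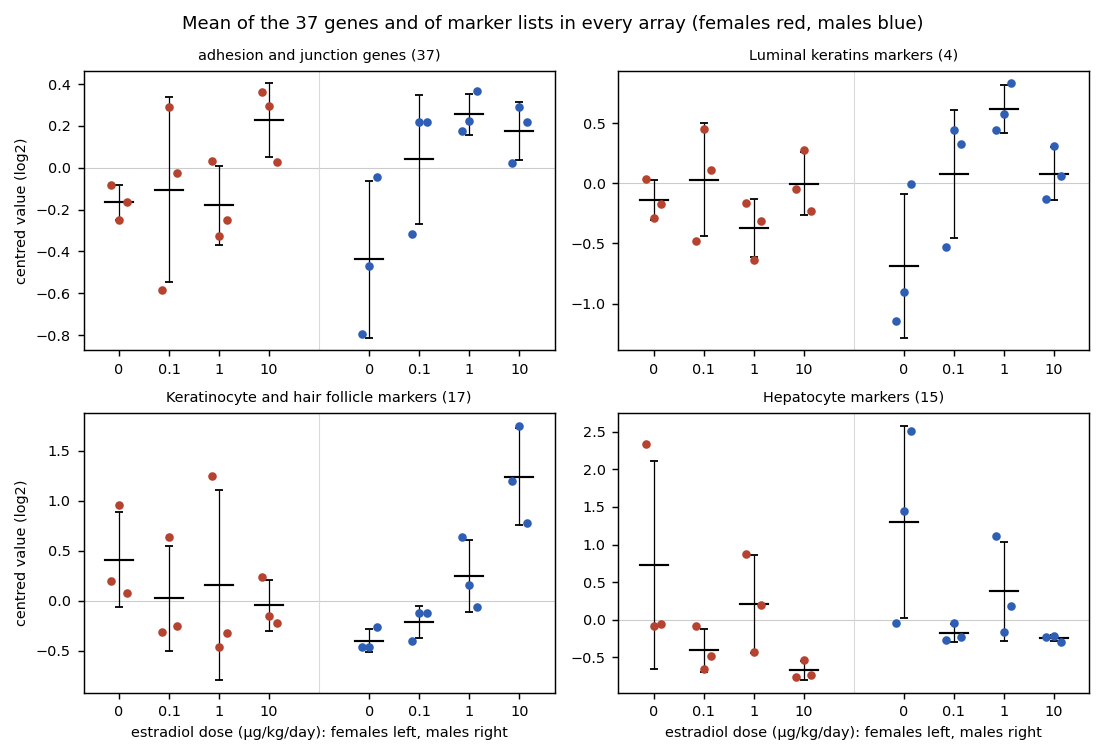
Mean centred value (log2) of the 37 adhesion and junction genes and of 3 marker lists in each array, against estradiol dose, females in red on the left and males in blue on the right of each panel. Points are arrays, the long bar is the group mean and the error bar 1 SD (n = 3). Males at 0 had a mean of the 37 genes between -0.79 and -0.05, and the luminal keratins of the same arrays ran from -1.14 to -0.01.

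In males, each of the 6 classes had at least 1 probe set called higher at 10 than at 0. For tight junctions it was 1 of 14, near the share over all probe sets, and for adherens junctions 1 of 6. At 10 against 0, limma called 16 of 47 probe sets higher and 0 lower, where 7.81% of all probe sets were called higher and 9.64% lower. At 1 against 0 it called 12 higher and 0 lower, where 1.53% and 2.10% of all probe sets were called. Unadjusted p was under 0.05 for 22 members at 10, where 16.2% of all probe sets had it in the higher direction, and for 29 at 1, where 8.28% did. The 47 differences had a median of 0.48 at 10 and 0.44 at 1, beside -0.01 over all probe sets in both comparisons. At 0.1 against 0 limma called 0 member probe sets, and 0% of all probe sets, in either direction. There, 19 members had an unadjusted p under 0.05 in the higher direction, where 5.30% of all probe sets did, and their median difference was 0.27. Arrays at 0.1 lay above all those at 0 in 2 member probe sets, where 8.32% of all did, and below in 1, where 10.8% did. The 3 male comparisons use the same 3 arrays at 0, so they are not independent. In whole glands, fewer cells of a type and less RNA per cell cannot be told apart.

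The mean over the 37 genes was -0.79, -0.47 and -0.05 in the male arrays at 0 and -0.32, 0.22 and 0.22 at 0.1. It was 0.18, 0.22 and 0.37 at 1 and 0.02, 0.29 and 0.22 at 10. All arrays at 1 and at 10 lay above all arrays at 0, while those at 0.1 overlapped with them. Of single probe sets, 17 of 47 had all 3 arrays at 10 above all 3 at 0, where 18.2% of all probe sets did, and 2 had them below, where 18.9% did. At 1 the arrays of 29 lay above those at 0, where 12% of all probe sets did, and those of 1 below, where 14.3% did.

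**Figure D2:**
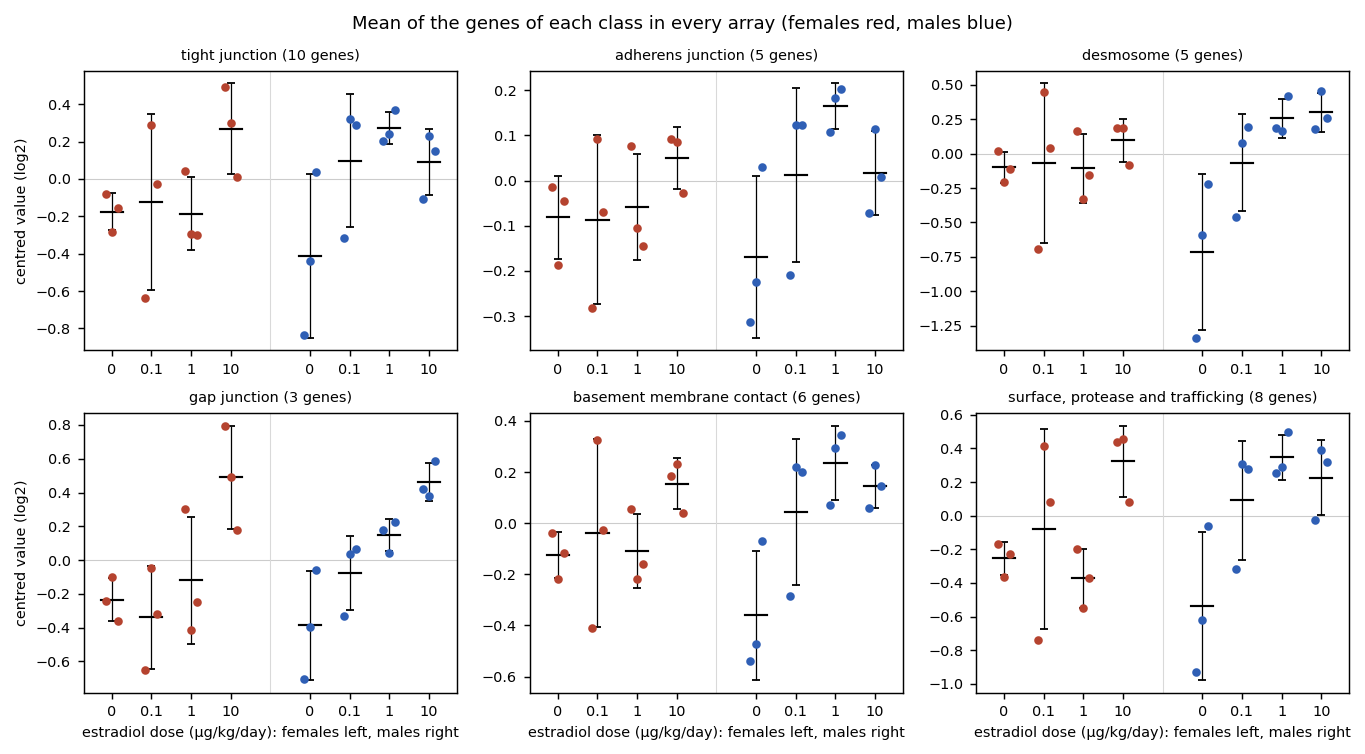
Mean centred value (log2) of the genes of each class in each array, against estradiol dose, females in red on the left and males in blue on the right. Points are arrays, the long bar is the group mean and the error bar 1 SD (n = 3). In males the gap junction genes have their highest mean at 10, while the tight junction, adherens junction and basement membrane genes have theirs at 1.

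Among the tight junction genes, occludin passed at 10 in males, and claudin-7 and cingulin passed at 1. Of 14 probe sets, 1 was called higher at 10 and 2 at 1, where 7.81% and 1.53% of all probe sets were. None were called lower. In 2 of the 14 all arrays at 10 lay above those at 0, where 18.2% of all probe sets did. Ocln encodes occludin, a membrane protein of the seal. Its probe set 1378753_at read -1.38, -0.68 and -0.15 in males at 0 and -0.66, 0.27 and 0.18 at 0.1. It read 0.04, 0.01 and 0.13 at 1 and 0.10, 0.60 and 0.53 at 10. Every array at 1 and at 10 was above every array at 0. The difference at 10 was 1.15 ± 0.30 (adjusted p = 0.0122), a 2.22-fold rise with a 95% interval from 1.44 to 3.41, and at 1 it was 0.80 ± 0.30 (adjusted p = 0.142). The second Ocln probe set, 1398281_at, gave 0.54 ± 0.26 at 10 and was not called.

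Cgn encodes cingulin, which links the junction to actomyosin. It read -1.60, -0.67 and -0.01 in males at 0, -0.28, 0.20 and 0.35 at 0.1, 0.47, 0.26 and 0.57 at 1, and -0.32, 0.35 and 0.27 at 10. The arrays at 1 were above all those at 0, and 1 array at 10 fell among them. The difference was 1.19 ± 0.31 at 1 (adjusted p = 0.0419) and 0.86 ± 0.31 at 10 (adjusted p = 0.0654). Cldn7 encodes a claudin of the lateral membrane. It read -1.43, -0.93 and -0.02 at 0, -0.47, 0.42 and 0.23 at 0.1, 0.28, 0.49 and 0.74 at 1, and -0.32, 0.33 and 0.39 at 10. As for cingulin, the arrays at 1 were clear of those at 0 and those at 10 were not. Its difference was 1.30 ± 0.34 at 1 (adjusted p = 0.0412) and 0.93 ± 0.34 at 10 (adjusted p = 0.0669).

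The other claudins did not pass in males. Cldn3 differed by 1.07 at 1 and 0.90 at 10, Cldn4 by 1.00 and 0.60, and Cldn8 by 1.34 and 1.06. The 3 probe sets of Cldn1 gave -0.23, 0.12 and -0.07 at 10. The 2 of Tjp1, which encodes the scaffold ZO-1, gave -0.21 and -0.13. Tjp3, encoding ZO-3, differed by 0.28 and F11r, encoding the adhesion molecule JAM-A, by -0.20. The differences within the class therefore ran from -0.23 to 1.15 at 10.

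Of the adherens junction genes, E-cadherin was called and the catenins were not. Cdh1 encodes E-cadherin, the main adhesive receptor of luminal cells. Its probe set 1386947_at read -1.64, -0.95 and -0.18 in males at 0 and -0.63, 0.37 and 0.44 at 0.1. It read 0.39, 0.45 and 0.68 at 1 and -0.04, 0.50 and 0.21 at 10. All arrays at 1 and 10 were above those at 0. The difference was 1.43 ± 0.35 at 1 (adjusted p = 0.0306) and 1.15 ± 0.35 at 10 (adjusted p = 0.0292), a 2.22-fold rise with an interval from 1.34 to 3.69. The other Cdh1 probe set, 1386446_at, stayed between -0.07 and 0.08 in all male arrays and gave -0.01 ± 0.06 at 10, so the 2 probe sets disagreed.

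The remaining members of the class had small differences at 10, none called: 0.09 for Cdh3 (P-cadherin, of the myoepithelial layer), 0.10 for Ctnna1 (α-catenin) and 0.10 for Ctnnd1 (p120-catenin). Jup, encoding plakoglobin of both adherens junctions and desmosomes, differed by 0.35 at 1 and 0.07 at 10. Over the 6 probe sets the median was 0.25 at 1 and 0.09 at 10.

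In the desmosome class, 4 of 5 probe sets were called at 10 in males and 2 at 1, all higher. Over all probe sets, 7.81% were called higher at 10 and 1.53% at 1. The median difference of the class was 0.94 at 10 and 1.01 at 1. Dsg2 encodes desmoglein-2, a desmosomal cadherin of simple epithelia that is also known in skin. It read -1.99, -0.69 and -0.44 in males at 0 and -0.60, -0.10 and 0.21 at 0.1. It read 0.32, 0.12 and 0.69 at 1 and 0.45, 0.90 and 0.69 at 10. Replicate 1 at 0 was far below its group, and no array at 1 or 10 reached down to any at 0. The difference at 10 was 1.72 ± 0.40 (adjusted p = 0.00683), a 3.30-fold rise with an interval from 1.83 to 5.93, and at 1 it was 1.42 ± 0.40 (adjusted p = 0.0569).

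Dsc2 encodes desmocollin-2, the partner of desmogleins. It read -2.28, -1.03 and -0.45 in males at 0, -0.57, 0.34 and 0.26 at 0.1, 0.37, 0.13 and 0.65 at 1, and -0.02, 0.41 and 0.29 at 10. The arrays at 1 and 10 were above all those at 0, and again replicate 1 at 0 was the lowest. The difference was 1.64 ± 0.41 at 1 (adjusted p = 0.0354) and 1.48 ± 0.41 at 10 (adjusted p = 0.0191). Pkp3 encodes plakophilin-3, a plaque protein. It read -1.41, -0.63 and -0.26 at 0, -0.37, 0.11 and 0.20 at 0.1, 0.08, 0.30 and 0.36 at 1, and 0.09, 0.34 and 0.10 at 10, with no overlap between 0 and the 2 higher doses. It differed by 1.01 ± 0.24 at 1 (adjusted p = 0.0252) and 0.94 ± 0.24 at 10 (adjusted p = 0.0104). Pkp2 rose by 0.59 ± 0.19 at 10 (adjusted p = 0.0405). Pkp1, the plakophilin of stratified epithelia, gave 0.35 ± 0.28 and was not called.

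Of the 5 gap junction probe sets, 2 were called higher at 10 in males and 0 at 1, where 7.81% and 1.53% of all were. The largest difference of the whole list was here. Gjb2 encodes connexin 26, a gap junction protein of secretory mammary epithelium that is also made in skin and liver. It read -2.0, -1.05 and -0.50 in males at 0 and -0.57, -0.01 and 0.04 at 0.1. It read 0.69, 0.01 and 0.33 at 1 and 1.23, 0.97 and 1.42 at 10. All other male arrays were below those at 10. The difference at 10 was 2.39 ± 0.48 (adjusted p = 0.00234), a 5.24-fold rise with an interval from 2.60 to 10.6, and at 1 it was 1.53 ± 0.48 (adjusted p = 0.0845).

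Gja1 encodes connexin 43, the channel protein of myoepithelial cells. Its probe set 1372002_at read -0.57, -0.46 and -0.12 in males at 0, -0.42, -0.22 and -0.31 at 0.1, 0.14, 0.09 and 0.17 at 1, and 0.56, 0.59 and 0.69 at 10. The arrays at 10 lay above all those at 1, and these above all those at the lower doses. The difference at 10 was 1.00 ± 0.16 (adjusted p = 0.000323) and at 1 it was 0.52 ± 0.16 (adjusted p = 0.0721). The other 2 Gja1 probe sets, 1369639_at and 1369640_at, gave 0.10 and -0.11 at 10 and were not called. Gjb1 encodes a connexin that is also abundant in liver. It read 0.03, 0.01 and 0.36 in males at 0, -0.26, 0.16 and 0.26 at 0.1, -0.20, 0.05 and 0.27 at 1, and -0.17, -0.01 and 0.07 at 10, overlapping groups with a difference of -0.17 ± 0.18.

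**Figure D3:**
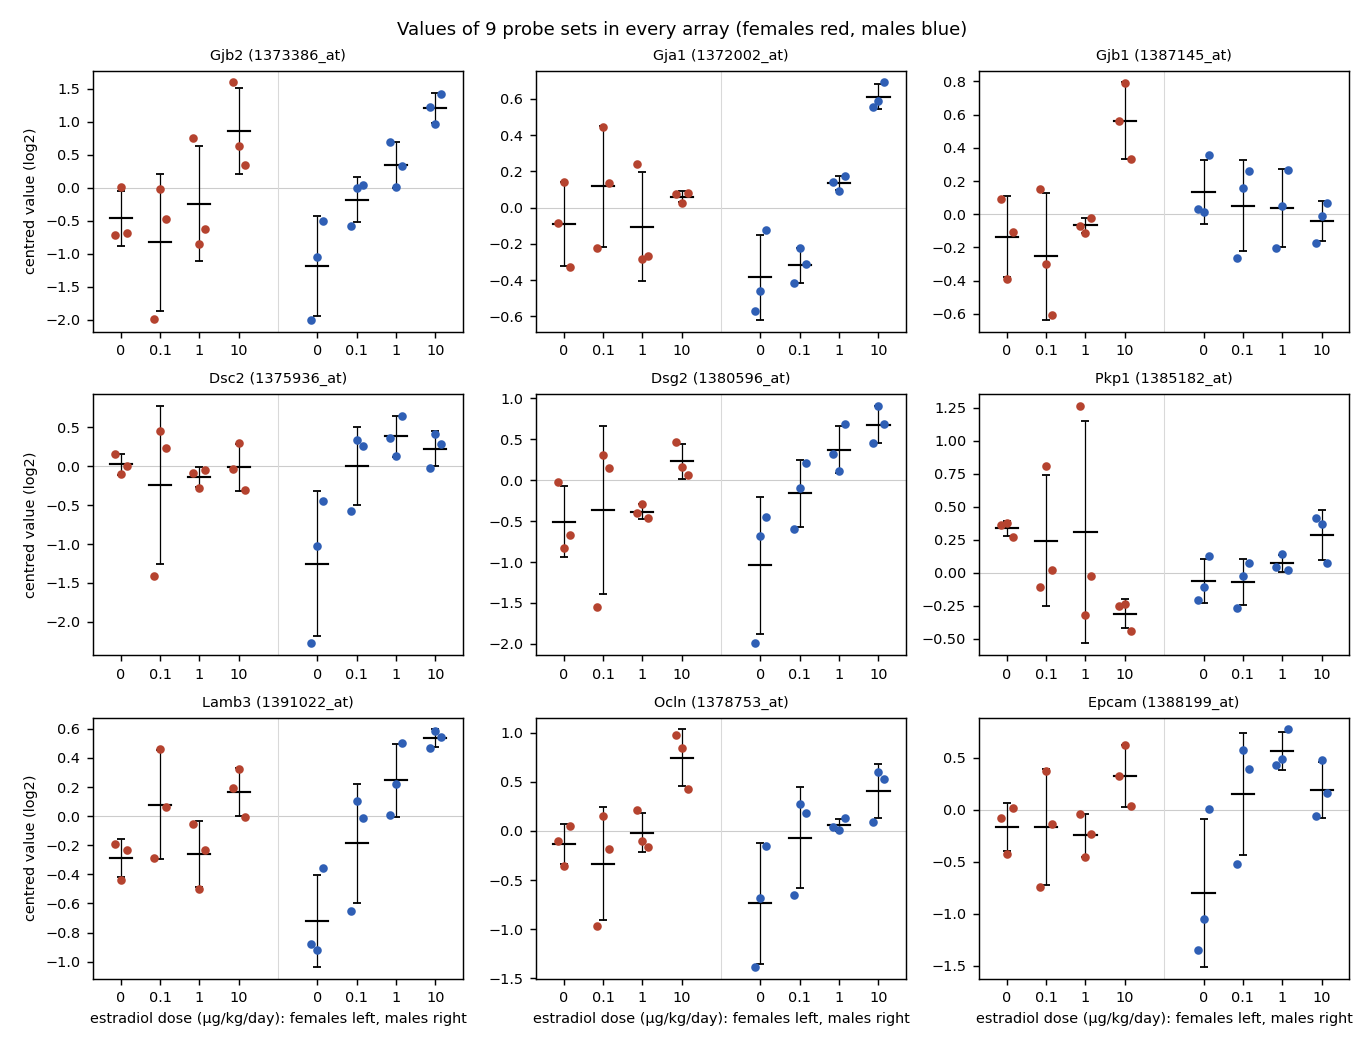
Centred values (log2) of 9 probe sets in each array against estradiol dose, females in red on the left and males in blue on the right. Points are arrays, the long bar is the group mean and the error bar 1 SD (n = 3). The arrays of males at 10 are above all other male arrays for Gjb2 (0.97 to 1.42) and Gja1 (0.56 to 0.69), and male replicate 1 at 0 is the lowest for Dsc2 (-2.28) and Dsg2 (-1.99).

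Of the 9 probe sets of basement membrane contact genes, 3 were called higher at 10 in males and 3 at 1, and 0 lower. The shares called higher over all probe sets were 7.81% and 1.53%. Lamb3 encodes the β3 chain of laminin-332. It read -0.88, -0.92 and -0.35 in males at 0 and -0.65, 0.11 and -0.01 at 0.1. It read 0.01, 0.22 and 0.51 at 1 and 0.47, 0.59 and 0.55 at 10. The 3 arrays at 10 lay close together and above all at 0. The difference was 0.96 ± 0.20 at 1 (adjusted p = 0.0156) and 1.25 ± 0.20 at 10 (adjusted p = 0.000418), a 2.38-fold rise with an interval from 1.77 to 3.20.

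Lama3 encodes the α3 chain of the same laminin. It read -0.41, -0.27 and 0.26 in males at 0, 0.04, 0.48 and 0.57 at 0.1, 0.34, 0.63 and 0.48 at 1, and -0.32, 0.04 and -0.12 at 10. The arrays at 10 overlapped those at 0 and lay below all those at 1. Its difference was 0.62 ± 0.18 at 1 (adjusted p = 0.0645) and 0.01 ± 0.18 at 10, and neither passed. Col17a1 encodes collagen XVII of hemidesmosomes. It read -1.57, -1.04 and -0.30 at 0, -0.71, 0.26 and 0.14 at 0.1, 0.16, 0.35 and 0.55 at 1, and 0.09, 0.47 and 0.22 at 10, clear of the arrays at 0 at the 2 higher doses. It rose by 1.33 ± 0.32 at 1 (adjusted p = 0.0309) and 1.23 ± 0.32 at 10 (adjusted p = 0.0136).

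Itga3 encodes the α3 integrin, a laminin receptor. It read -0.42, -0.30 and -0.20 in males at 0, -0.16, 0.05 and -0.14 at 0.1, -0.02, 0.06 and 0.12 at 1, and 0.10, 0.17 and 0.23 at 10, every treated array above those at 0. The difference was small and tight, 0.36 ± 0.09 at 1 (adjusted p = 0.0309) and 0.48 ± 0.09 at 10 (adjusted p = 0.00119). The hemidesmosome integrin did not pass. Itgb4 differed by 0.15 at 10, and the 4 probe sets of Itga6 gave -0.15, -0.11, 0.25 and -0.36, disagreeing in sign.

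Of the 8 surface, protease and trafficking genes, 5 were called at 10 in males and 4 at 1, all higher. The shares called higher over all probe sets were 7.81% and 1.53%. Prom2 encodes prominin-2, a protein of plasma membrane protrusions. It read -0.42, -0.28 and -0.18 in males at 0, -0.01, -0.09 and 0.01 at 0.1, 0.26, 0.02 and 0.17 at 1, and 0.30, 0.65 and 0.68 at 10. No other male array reached those at 10. The difference at 10 was 0.84 ± 0.13 (adjusted p = 0.000307), and at 1 it was 0.44 ± 0.13 (adjusted p = 0.0658).

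St14 encodes matriptase, a membrane serine protease, and Spint1 its inhibitor HAI-1. St14 read -0.72, -0.68 and -0.25 in males at 0, -0.46, 0.11 and 0.16 at 0.1, 0.31, 0.26 and 0.41 at 1, and 0.03, 0.30 and 0.24 at 10. Spint1 read -1.19, -0.94 and -0.09 at 0, -0.44, 0.20 and 0.26 at 0.1, 0.35, 0.32 and 0.57 at 1, and -0.04, 0.26 and 0.29 at 10. Both were clear of 0 at 1 and 10. St14 rose by 0.88 ± 0.21 at 1 (adjusted p = 0.0289) and 0.74 ± 0.21 at 10 (adjusted p = 0.0217). Spint1 rose by 1.15 ± 0.27 (adjusted p = 0.0234) and 0.91 ± 0.27 (adjusted p = 0.0248). The related inhibitor gene Spint2 differed by 0.98 and 0.70 and was not called.

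Epcam encodes the epithelial cell adhesion molecule. It read -1.35, -1.05 and 0.01 in males at 0, -0.52, 0.58 and 0.39 at 0.1, 0.43, 0.49 and 0.77 at 1, and -0.06, 0.47 and 0.16 at 10. Replicate 3 at 0 was above the lowest array at 10, so those groups overlapped. Its difference was 1.36 ± 0.32 at 1 (adjusted p = 0.0263) and 0.99 ± 0.32 at 10 (adjusted p = 0.0405). Rab25, a GTPase of recycling vesicles, rose by 0.98 ± 0.26 at 1 (adjusted p = 0.0420) and 0.76 ± 0.26 at 10 (adjusted p = 0.0486), and its groups also overlapped at 10. Cd24, a surface glycoprotein of luminal cells that B cells also make, differed by 1.18 and 0.98 without passing, and Prom1 by 0.09 and 0.19.

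The male calls depended on the arrays at 0 and moved with other markers. Without replicate 1 at 0, the count at 10 was 5, and without replicate 3 at 0 it was 22. It was 10 without replicate 2 at 0, and 6 and 9 without replicates 11 and 12 at 10. At 1 against 0 it was 0 without replicate 1 or replicate 2 at 0, 21 without replicate 3, and 0 or 1 without any 1 of the arrays at 1. Leaving out any 1 of the 6 arrays compared at 10, 5 of the 16 kept their call, namely Prom2, Gja1, Lamb3, Itga3 and Gjb2. At 1, 0 of the 12 did so. With the mean of the luminal keratins as a covariate, a fit added after the data were seen, 0 members were called at 1. At 10 the same fit called 5 higher (Lamb3 0.73, Prom2 0.76, Gja1 0.73, Gjb2 1.60 and Itga3 0.35) and 3 lower (F11r -0.55, Lama3 -0.42 and Jup -0.30). Gjb2, Dsg2, Dsc2, Pkp3, Lamb3 and Col17a1, all called in males, are among the genes also known in skin. The naming is not complete, and the other called genes were not checked for expression in skin. In males at 10, 12 of 17 keratinocyte and hair follicle genes rose (13 of 21 probe sets, where 7.81% of all did). Whether skin was a source of the member calls was not tested. With the keratinocyte mean as a covariate, 0 members were called at either dose. With the beta-actin difference, 2 were called at 10 (Lamb3 1.15 and Prom2 0.73). Male arrays at 0 and 10 did not overlap in the keratinocyte mean (-0.47 to -0.27 and 0.78 to 1.75) or in the beta-actin difference. Nor did those at 0 and 1 in the keratinocyte mean or the luminal keratins. In these comparisons the fits cannot cleanly separate the covariate from dose. Leaving out the 5 arrays with hepatocyte transcripts gave 18 at 10 and 3 at 1, and the 1 male array left at 0 was replicate 1, the lowest male array named above, with its spread taken from the rest of the arrays.

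Between 1 and 10 in males, limma called 0 of 47 probe sets, where 0.177% of all probe sets were called higher and 0.209% lower. Unadjusted p was under 0.05 for 2 higher and 1 lower, where 3.98% and 5.43% of all probe sets were. The median difference was -0.09, and 31 of 47 differences were below 0, while the median over all probe sets was 0.00. Gjb2 (0.86 ± 0.48), Gja1 (0.48 ± 0.16, adjusted p = 0.258) and Prom2 (0.40 ± 0.13, adjusted p = 0.266) were the 3 with every array at 10 above every array at 1, where 9.25% of all probe sets were. In 5 the arrays at 10 were all below those at 1, where 9.72% were. These were Cldn4 (-0.40), Ctnna1 (-0.11), Itga6 1393558_at (-0.52), Lama3 (-0.62 ± 0.18, adjusted p = 0.183) and Spint1 (-0.25).

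In females limma called 0 of the 47 probe sets at 10 against 0, where 0.812% of all probe sets were called higher and 1.05% lower. Unadjusted p was under 0.05 for 17 higher, where 6.01% of all were, and for 4 lower, where 7% were. The median difference was 0.37, beside -0.01 over all probe sets. The arrays at 10 lay above all those at 0 in 24 of 47 probe sets, where 9.67% of all did, and below in 4, where 10.2% did. The mean over the 37 genes was -0.08, -0.25 and -0.16 in females at 0, and 0.36, 0.29 and 0.03 at 10, which do not overlap. The luminal keratins overlapped, at 0.04, -0.29 and -0.17 against -0.05, 0.28 and -0.23, and 0 of the 4 were called.

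Gjb1, the connexin that is also abundant in liver, had the smallest p in females at 10. It read 0.09, -0.39 and -0.11 at 0, 0.15, -0.30 and -0.61 at 0.1, -0.07, -0.11 and -0.02 at 1, and 0.56, 0.79 and 0.33 at 10. All other female arrays were below those at 10. The difference was 0.70 ± 0.18 (adjusted p = 0.0556), a 1.62-fold difference with an interval from 1.25 to 2.11. The hepatocyte mean was 2.33, -0.08 and -0.05 in the female arrays at 0 and from -0.76 to -0.53 at 10. Its part in the Gjb1 values was not tested. Cd24 read -0.47, -0.74 and -0.38 at 0, -1.43, 0.19 and 0.22 at 0.1, -0.32, -0.77 and -0.60 at 1, and 1.02, 0.86 and 0.36 at 10, with no overlap, and differed by 1.28 ± 0.39 (adjusted p = 0.104).

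Several junction genes were higher in every female array at 10 than at 0 without passing. Ocln 1378753_at read -0.10, -0.36 and 0.05 in females at 0, -0.96, 0.15 and -0.18 at 0.1, 0.21, -0.10 and -0.16 at 1, and 0.98, 0.84 and 0.43 at 10, a difference of 0.88 ± 0.30 (adjusted p = 0.151) with no overlap. Gjb2 read -0.72, 0.01 and -0.68 at 0, -1.99, -0.01 and -0.47 at 0.1, 0.76, -0.85 and -0.63 at 1, and 1.59, 0.64 and 0.34 at 10, a difference of 1.32 ± 0.48 (adjusted p = 0.202), also without overlap. The claudins Cldn3, Cldn7 and Cldn8 differed by 0.88, 0.76 and 0.94, and Cgn by 0.84. Prom2 differed by 0.46 (adjusted p = 0.0867) and Itga6 1371186_at by 0.61 (adjusted p = 0.0879).

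The other genes that were called in males read as follows in females, with Pkp2 and Rab25 given as ranges. Pkp2 ran from -0.29 to -0.04 at 0 and from 0.16 to 0.56 at 10. Rab25 ran from -0.27 to -0.175 at 0 and from 0.16 to 0.56 at 10. Cgn read -0.34, -0.47 and -0.17 at 0, -0.67, 0.23 and 0.01 at 0.1, -0.14, -0.27 and -0.29 at 1, and 1.05, 0.25 and 0.25 at 10. Cldn7 read -0.36, -0.58 and -0.54 at 0, -0.82, 0.40 and 0.14 at 0.1, -0.34, -0.89 and -0.56 at 1, and 0.63, 0.36 and -0.18 at 10. Both had every array at 10 above every array at 0. The E-cadherin probe set 1386947_at read -0.08, -0.46 and -0.30 at 0, -0.88, 0.57 and 0.01 at 0.1, 0.08, -0.56 and -0.26 at 1, and 0.44, 0.32 and -0.02 at 10. All 3 arrays at 10 were above all 3 at 0 for it too, with a difference of 0.53 ± 0.35.

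Among the female desmosome genes, Dsg2 read -0.02, -0.83 and -0.67 at 0, -1.55, 0.31 and 0.15 at 0.1, -0.40, -0.29 and -0.46 at 1, and 0.47, 0.16 and 0.06 at 10. Dsc2 read 0.16, -0.10 and 0.01 at 0, -1.41, 0.45 and 0.23 at 0.1, -0.09, -0.28 and -0.05 at 1, and -0.03, 0.30 and -0.30 at 10. Dsg2 was separated at 10 and Dsc2 overlapped, and replicate 4 at 0.1 was the lowest array of both. Pkp3 read -0.18, -0.17 and -0.14 at 0, -0.40, 0.25 and -0.10 at 0.1, 0.34, -0.43 and -0.27 at 1, and 0.19, 0.35 and 0.09 at 10. Gja1 1372002_at read -0.09, 0.14 and -0.33 at 0, -0.22, 0.44 and 0.14 at 0.1, 0.24, -0.29 and -0.27 at 1, and 0.07, 0.03 and 0.08 at 10. Pkp3 was higher at 10 than at 0 in all arrays, and the Gja1 groups overlapped.

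Of the female basement membrane genes, Lamb3 read -0.19, -0.44 and -0.24 at 0, -0.28, 0.46 and 0.07 at 0.1, -0.05, -0.50 and -0.23 at 1, and 0.19, 0.32 and -0.01 at 10. Col17a1 read -0.001, -0.31 and -0.16 at 0, -0.90, 0.54 and 0.08 at 0.1, 0.21, -0.38 and -0.24 at 1, and 0.57, 0.57 and 0.18 at 10. Both were separated at 10, by 0.46 ± 0.20 and 0.60 ± 0.32. Itga3 read 0.01, -0.19 and -0.08 at 0, 0.01, 0.16 and -0.19 at 0.1, -0.06, -0.23 and -0.16 at 1, and 0.07, 0.04 and -0.01 at 10, with overlapping groups.

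For the surface and protease genes, Prom2 read -0.31, -0.17 and -0.16 in females at 0, -0.05, 0.04 and -0.09 at 0.1, 0.18, -0.35 and -0.21 at 1, and 0.51, 0.03 and 0.21 at 10. St14 read -0.20, -0.24 and -0.22 at 0, -0.67, 0.37 and 0.12 at 0.1, -0.03, -0.50 and -0.38 at 1, and 0.31, 0.40 and 0.03 at 10. Their arrays at 10 were all above those at 0. Spint1 read -0.12, -0.29 and -0.01 at 0, -0.64, 0.50 and 0.01 at 0.1, -0.08, -0.40 and -0.29 at 1, and 0.23, 0.35 and -0.15 at 10. Epcam read -0.08, -0.43 and 0.01 at 0, -0.74, 0.37 and -0.14 at 0.1, -0.04, -0.45 and -0.24 at 1, and 0.32, 0.62 and 0.03 at 10. Epcam was separated at 10 and Spint1 overlapped.

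Pkp1, 2 probe sets of Cldn1 and 1 of Tjp1 had lower values in females at 10. Pkp1 read 0.36, 0.38 and 0.27 at 0 and -0.26, -0.24 and -0.44 at 10, with arrays at 0.1 and 1 spread from -0.32 to 1.26. Its difference was -0.65 ± 0.28 (adjusted p = 0.309). Cldn1 1383946_at read 0.04, 0.43 and -0.14 at 0 and -0.44, -0.72 and -0.41 at 10, a difference of -0.63 ± 0.27 (adjusted p = 0.296). Its probe set 1396150_at gave -0.57 (adjusted p = 0.143), the third gave -0.12 with overlapping groups, and Tjp1 1372473_at gave -0.23 (adjusted p = 0.357), while the other Tjp1 probe set gave 0.08. The arrays at 10 were below those at 0 for Pkp1, 2 Cldn1 probe sets and this Tjp1 probe set. Both Pkp1 and Cldn1 are also known from skin, and the keratinocyte mean of these arrays was 0.20, 0.95 and 0.08 at 0 and 0.24, -0.16 and -0.23 at 10. Its part in these values was not tested. With the luminal keratin covariate, a fit added after the data were seen, 11 members were called higher in females at 10. Those with the smallest p were Cd24 (1.11), Ocln (0.75), Rab25 (0.50) and Cldn3 (0.73). The share of all probe sets called in that fit is not given here, so the 11 cannot be set against it.

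Lower doses in females gave small differences. At 0.1 against 0 limma called 0 members, and 0% of all probe sets, in either direction. Unadjusted p was under 0.05 for 2 higher and 1 lower, where 3.81% and 6.12% of all probe sets were, and the median difference was 0.08. Arrays were separated upward in 2 probe sets, where 4.93% of all were, and downward in 0, where 6.58% were. The mean over the 37 genes was -0.58, 0.29 and -0.02 at 0.1, so this group had the widest spread. At 1 against 0 limma called 0, again with 0% of all probe sets, and 0 had an unadjusted p under 0.05, where 0.879% of all were in the higher direction. No member's arrays were separated, where 2.92% of all were upward and 5.89% downward.

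From 1 to 10 in females limma called 0 members, where 0.184% of all probe sets were called higher and 0.0838% lower. Unadjusted p was under 0.05 for 18 higher, where 5.90% of all were, and for 3 lower, where 4.21% were. The median difference was 0.37, and 19 probe sets had arrays at 10 all above those at 1, where 9.15% of all did, and 2 had them below, where 5.42% did. Prom1, encoding prominin-1, a surface protein of luminal cells, read -1.11, -1.14 and -0.77 at 1 and 0.15, 0.27 and -0.01 at 10. The groups were apart by 1.14 ± 0.32 (adjusted p = 0.140), while its arrays at 0, at 0.01, -0.58 and -0.80, reached the range at 10.

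**Figure D4:**
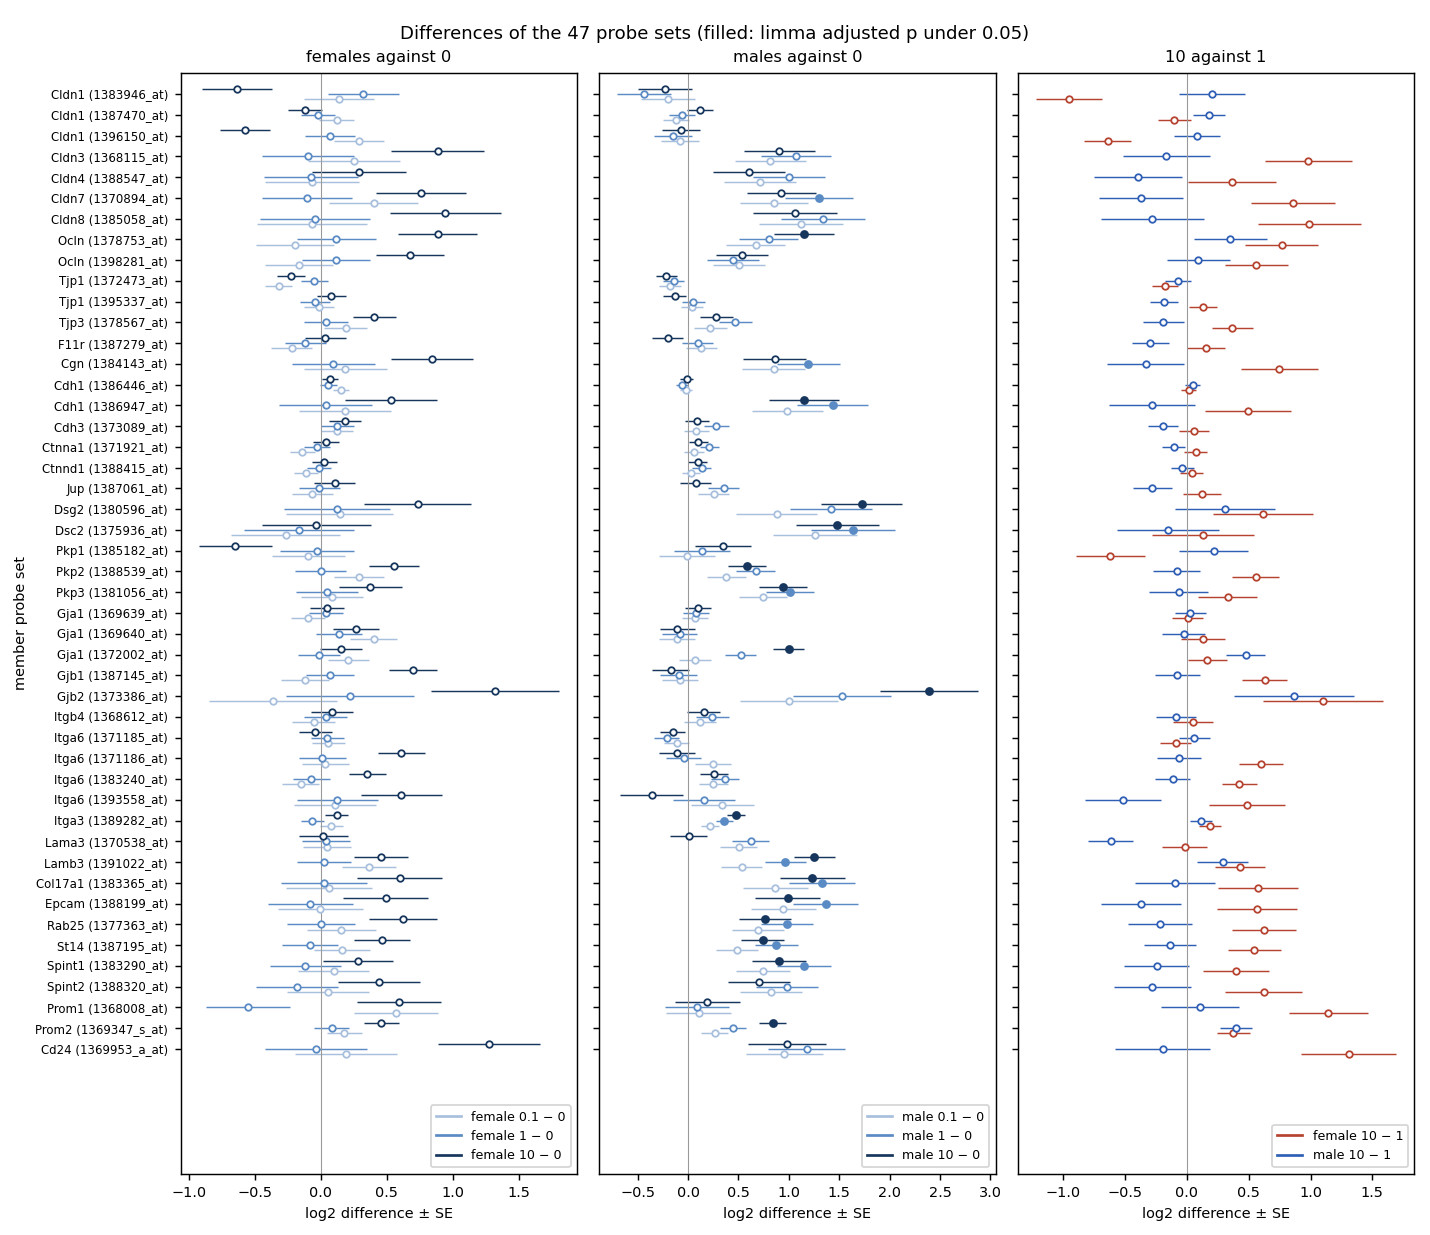
Log2 difference with its SE (horizontal axis) for each of the 47 probe sets (vertical axis) in females against 0, in males against 0, and at 10 against 1 in both sexes. Filled points had a limma adjusted p under 0.05. Filled points appear in males at 1 (12) and 10 (16) and in no female comparison.

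A call in males and none in females does not show that the sexes differed, so the difference of the 2 effects at 10 was tested. For this interaction, the male difference minus the female difference, limma called 0 of 47 probe sets, where 0.525% of all probe sets were called higher and 0.754% lower. Unadjusted p was under 0.05 for 5 higher, where 10.0% of all were, and for 3 lower, where 9% were. The median was 0.07, beside -0.01 over all probe sets. The 2 smallest p-values belonged to connexins with opposite signs. Gja1 1372002_at gave 0.85 ± 0.22 (adjusted p = 0.0662), with 1.00 in males and 0.15 in females. Gjb1 gave -0.87 ± 0.26 (adjusted p = 0.0927), with -0.17 in males and 0.70 in females. Dsc2 gave 1.52 ± 0.59 (adjusted p = 0.183), with 1.48 in males and -0.03 in females. Pkp1 gave 1.00 ± 0.39 (adjusted p = 0.190). The interaction nearest 0 was that of Tjp1 1372473_at (0.01), followed by Lama3 (-0.01) and by Cgn and Cldn3 (0.02 each).

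Other genes of the same contacts were counted from wider lists, by gene, with any probe set called. The shares over all probe sets in males at 10, 7.81% higher and 9.64% lower, are given per probe set, so the probe sets of each list are counted too. Among 7 measured desmosome genes outside the 37, 3 rose in males at 10 and 0 fell (4 and 0 of 12 probe sets). They were Dsp (1.86 ± 0.40), encoding desmoplakin, Perp (1.67 ± 0.42) and Evpl (0.45 ± 0.14). At 1 they gave 1.72, 1.51 and 0.76, also called. Of 23 measured tight junction genes, 5 rose and 3 fell in males at 10 (7 and 6 of 46 probe sets). Crb3, encoding a polarity protein of the apical membrane, rose by 0.95 ± 0.18, while Jam2, which endothelial cells make, fell by 0.71 and Cldn22 fell by 0.67. Of 12 adherens junction genes, 4 rose and 4 fell (5 and 5 of 29 probe sets). Ctnnd2, encoding δ-catenin, rose by 1.34 ± 0.27 and Cdh11, a cadherin of mesenchymal cells, by 0.83 ± 0.17, while Cdh2, encoding N-cadherin, fell by 0.61. In the same comparison 7 of 9 endothelial markers fell (7 of 10 probe sets).

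Of 8 further gap junction genes, 0 rose and 2 fell in males at 10 (0 and 2 of 12 probe sets), Gja4 by 0.83 and Panx1 by 0.45. Gja4 encodes connexin 37 of vessel walls. Among 20 further genes of the basement membrane and its receptors, 4 rose and 10 fell (4 and 12 of 34 probe sets), and Dst counts in both since its probe sets gave 1.31 and -0.42. Lama5, encoding the α5 laminin chain, rose by 0.62 ± 0.08, whereas Nid2, a nidogen, fell by 1.08 and Cd151, a tetraspanin, by 0.56. Of 11 further epithelial genes, 6 rose and 0 fell (8 and 0 of 18 probe sets), among them Rab11fip1 (0.90 ± 0.16), Grhl1 (0.97 ± 0.21), a grainyhead factor, and Vtcn1 (1.19 ± 0.33).

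In females at 10, 3 of the 23 further tight junction genes rose and 0 fell (4 and 0 of 46 probe sets, where 0.812% and 1.05% of all did). These were Cldn10 (1.56 ± 0.31), Pals1 (0.40 ± 0.08) and Cgnl1 (0.61 ± 0.14, the probe set with the smaller p). Cgnl1 encodes paracingulin, a relative of cingulin that endothelial cells also make. That Cgnl1 probe set fell by 0.57 in males at 10, and its interaction was -1.18 ± 0.19 (limma adjusted p = 0.00858). Of the further basement membrane genes, Nid2 fell by 0.89 ± 0.16 in females, and Tmprss2, a membrane protease, rose by 0.45 ± 0.10 among the further epithelial genes.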

How the data were processed

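RNA from rat abdominal mammary gland pairs was measured on 24 Affymetrix arrays, 3 in each of 8 groups taken from the sample titles. The deposited values, for 31099 probe sets, are signed logs and were read as log2. Neither their base nor how they were summarized, normalized or centred is given in the sources used here. GCOS is named with no role, per the submitters' processing notes. Every probe set appears to be centred in females and in males separately: the pair of values next to 0 had the same size and opposite signs (tolerance 2e-06) in 45.3% of probe sets in females and 41.9% in males, and in 38.3% and 23.4% of the 47 member probe sets. Signal over background is thus unknown, and precision is limited by how many arrays there are. Folds assume log2. No 2 arrays were identical.

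After leaving out 57 control probe sets, limma 3.58.1 in R 4.3.3 fitted a mean for each of the 8 groups to 31042 probe sets (16 residual and 2.95 prior degrees of freedom). There were 9 comparisons, with Benjamini-Hochberg adjustment over all probe sets in each. The fit was tested on simulated data with independent noise in each probe set and array. That test does not cover arrays in which many probe sets shift together. GEO's platform annotation gave 1 gene for 20826 probe sets. The members, lists, rule and tests were chosen with earlier results of these data known. Values in every array are given, in each class, for up to 3 probe sets with the smallest adjusted p at 10 against 0 (for adherens junctions, the 1 that passed). Values of Lama3, Epcam, Cd24, Pkp1, Pkp2, Rab25, Cldn1 and Prom1 at some or all doses, and Dst, were chosen after their values were seen. Up to 3 genes of each wider list that passed are named, smallest adjusted p first. Alternatives were other sets of arrays, centring, a filter on low SD, array weights, marker covariates and averaging by gene, and the luminal keratin covariate was added after seeing the data.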

Additional observations from a re-analysis of the deposited data

How the results depend on the processing

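Of 160 recomputed counts of called members, 117 were equal to the reported count or within 1.5 times it. The reported count was 0 in every comparison except males at 1 and at 10 against 0. In the others an unchanged count is 0 again, so the 117 do not measure how stable the calls were. In males at 10 (16) the count was 8 with the groups compared alone, 7 with tissue marker covariates, 0 with the keratinocyte covariate, 2 with beta-actin, 8 with the luminal keratins and 5 to 22 leaving out 1 array. The 5 came without replicate 1 at 0, and the counts were 6 without replicate 11 and 9 without replicate 12 at 10. Median centring and array weights both gave 16. In males, the keratinocyte and beta-actin covariates at 10, and the keratinocyte and luminal ones at 1, cannot be cleanly separated from dose. In males at 1 (12) it was 2 with the groups alone, 1 with tissue markers, 0 with the keratinocyte or luminal covariate, 3 without the 5 arrays with hepatocyte transcripts, 3 without the 2 widest arrays and 0 to 21 leaving out 1 array. The luminal covariate turned 28 of the 38 member differences above 0 there to below 0, among them 7 of the 12 called: Cldn7 -0.15, Cdh1 -0.11, Dsc2 -0.0430, Col17a1 -0.11, Epcam -0.10, Rab25 -0.14 and Spint1 -0.0062. In males at 0.1 (0) it was 5 with beta-actin and 1 without the 5 hepatocyte arrays. In males at 10 against 1 (0) it was 1 with the groups alone (Gja1), 2 with array weights and 3 with the luminal covariate.

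In females at 10 (0) the count was 1 with the groups alone (Pkp1, lower), 2 with array weights, 4 with tissue markers, 3 with the keratinocyte covariate, 1 with beta-actin, 11 with the luminal covariate, 3 without the 2 widest arrays, 1 averaging by gene (Gjb1) and 0 to 2 leaving out 1 array, 2 without replicate 12 at 10. At 0.1 (0) it was 4 with array weights, 1 without the 2 widest arrays and 0 to 1 leaving out 1 array. At 10 against 1 (0) it was 1 with array weights and 2 without the 2 widest arrays. For the interaction (0) it was 2 with the groups alone (Pkp1 and Gja1), 2 with array weights (Gja1 and Gjb1) and 1 with the luminal covariate (Gjb1). Correlations of same-numbered female and male arrays ran from -0.48 to 0.59, with 5 of 12 above 0.1. As not every pair was above 0.1, the numbers were not taken as a pairing, and with the replicate block the interaction count was 0. No paired analysis was possible within a sex because its groups share no replicate numbers. The cause of these changes was not tested, and the shares of all probe sets called in these other fits are not given here.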

Other observations

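The outer epithelial layer was followed with 9 basal and myoepithelial markers. In males at 10, 4 rose and 1 fell against 0 (4 and 1 of 12 probe sets, where 7.81% and 9.64% of all probe sets did): Krt14 by 2.26 ± 0.40, Krt17 by 1.89 ± 0.38, Krt5 by 1.86 ± 0.40 and Tp63 by 1.76 ± 0.36, while Oxtr, the oxytocin receptor of contractile cells, fell by 1.26 (limma adjusted p from 0.000816 to 0.00370). Krt5, Krt14, Krt17 and Tp63 are also made in skin. At 1, again 4 rose and 1 fell (4 and 1 of 12 probe sets, where 1.53% and 2.10% of all did). Tp63 rose by 1.60 ± 0.36, Krt5 by 1.5 ± 0.40, Cnn1, a smooth muscle protein, by 1.26 ± 0.27 and Acta2, smooth muscle actin, by 0.68 ± 0.16. Oxtr fell by 0.98 ± 0.22. In females at 10, Acta2 rose by 0.62 ± 0.16 (limma adjusted p = 0.0499), and it was the single marker of this list called there, where 0.812% of all probe sets were called higher.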
